A study of Mus musculus with 6 samples.

Results

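The genes that hold axons and glia together at myelinated contacts, and the cytoskeletal linkers beneath them, were followed in neural stem cells (NSCs). The cells came from embryos with a conditional knockout of miR-151 and from their controls. The group holds 10 of the 32493 genes in the count table. They are the adhesion molecules *Nfasc*, *Nrcam*, *Cntn1*, *Cntn2* and *Cntnap1*, the ankyrin *Ank3* and the EPB41 family genes *Epb41*, *Epb41l1*, *Epb41l2* and *Epb41l3*. The symbols were chosen by their place in this junction, with the differences between genotypes in these same libraries already known. Folds and calls of the 10 genes are therefore given as a description, without a test and without support for any statement.

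RNA was sequenced from NSCs of E14.5 mouse embryos on a C57BL/6J background. The cells were dissected from the lateral ventricles and cultured in proliferation medium for 3 generations before sequencing. The cko embryos carried miR-151 fl/fl alleles and Emx1-IRES-Cre, which is active in cells of the dorsal telencephalon. Their ctrl littermates, called wt in the sample labels, carried the fl/fl alleles without Cre. The loxP sites lie in an intron of *Ptk2*. The number and sex of the embryos behind a library are not given in the sources used here, so that the spread between libraries may be technical. There are 3 count columns per genotype, but the column of ctrl replicate 2 is the average of the columns of ctrl libraries 1 and 3, rounded up, in all 32493 genes. It was left out, and 3 cko libraries were compared with 2 ctrl libraries of 17883796 to 23335736 counts each.

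At a myelinated axon, the node of Ranvier is an unmyelinated gap where sodium channels cluster, flanked by the paranode, where loops of the glial membrane are sealed to the axon, and by the juxtaparanode with its potassium channels. Neurofascin and NrCAM belong to the L1 type of adhesion molecules and gather at nodes and axon initial segments by binding ankyrin G, the product of *Ank3*. A glial form of neurofascin binds contactin 1 and CASPR, encoded by *Cntn1* and *Cntnap1*, across the paranode. Proteins of the EPB41 family carry a FERM domain and tie such membrane proteins to spectrin and actin. Many of these genes are also active outside myelin, in growing axons and in cells of the oligodendrocyte lineage. Counts per gene do not show whether any such junction was present in these cultures, and the names of the lists below refer to myelinated axons.

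The culture was checked by marker genes. The NSC markers *Sox2* and *Nes* were abundant, with 556 to 626 and 471 to 1068 CPM (counts scaled to library size, with the TMM normalization of edgeR). Markers of oligodendrocyte precursors were abundant too, with *Olig1* at 1097 to 1994 CPM and *Pdgfra* at 145 to 268 CPM. The Schwann cell gene *Prx* was at 2.23 to 4.37 CPM. The microglial genes *Cx3cr1* and *Tmem119* and the endothelial gene *Cdh5* had 0 counts in each library, and the summed microglial and endothelial lists reached at most 0.4805 and 6.71 CPM. Neuronal genes were present at very unlike levels, with *Tubb3* at 18.5 to 29.5 and *Map2* at 959 to 1124 CPM. In the same list, *Rbfox3* was at 4.76 to 6.83 CPM and *Neurod6* at 0.0429 to 0.960 CPM. *Xist*, transcribed from the inactive X chromosome, was at 2889 and 2557 CPM in ctrl and 787 to 894 CPM in cko libraries, and the Y-linked *Kdm5d* at 25.1 and 27.0 against 67.6 to 69.2 CPM. Both sex-linked genes were thus found in each library, and their levels moved with the genotype. The part of sex in the results was not tested. The host gene *Ptk2* had 133 and 150 CPM in ctrl and 138 to 142 CPM in cko libraries. The deleted miRNA has no row among the counted genes and was not analysed here.

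Upstream sequence is shown for the most strongly lowered members, *Nfasc* and *Epb41l2*, and for *Cntn1*, which was higher, because these carry the largest differences. RefSeq windows on GRCm38.p6 matched 8 of the 10 genes, and none was matched for *Cntnap1* and *Ank3*. Each window below holds the 250 bases before an annotated transcript start, 5′ to 3′ on the strand of the gene. It lies at chr1:132707327-132707576 on the minus strand for *Nfasc*, the farther upstream of 2 windows, at chr10:25408118-25408367 on the plus strand for *Epb41l2*, its single window, and at chr15:92050915-92051164 on the plus strand for *Cntn1*, the farthest upstream of 3. By the annotated gene spans given below, the *Nfasc* and *Epb41l2* windows lie inside the gene, before internal starts. The *Cntn1* window ends directly before the gene, so the windows are not of the same kind. The capitals mark ACAAT on either strand, a core motif bound by SOX factors.
Nfasc: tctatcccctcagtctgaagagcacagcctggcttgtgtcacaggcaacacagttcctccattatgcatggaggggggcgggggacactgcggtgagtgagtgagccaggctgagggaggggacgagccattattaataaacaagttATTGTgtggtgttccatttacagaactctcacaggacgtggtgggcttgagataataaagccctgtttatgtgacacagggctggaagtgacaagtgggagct
Epb41l2: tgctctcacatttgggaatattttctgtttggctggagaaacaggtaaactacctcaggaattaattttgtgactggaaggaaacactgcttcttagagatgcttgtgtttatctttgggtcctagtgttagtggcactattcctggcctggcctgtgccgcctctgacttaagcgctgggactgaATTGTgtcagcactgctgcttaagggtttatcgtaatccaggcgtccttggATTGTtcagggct
Cntn1: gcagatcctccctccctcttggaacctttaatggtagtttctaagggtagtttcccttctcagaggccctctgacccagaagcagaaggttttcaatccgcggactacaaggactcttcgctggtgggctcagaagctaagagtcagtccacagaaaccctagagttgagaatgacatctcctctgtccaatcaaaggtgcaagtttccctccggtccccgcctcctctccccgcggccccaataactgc

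The *Nfasc* window held 1 ACAAT match, starting 103 bases before the transcript start, and the *Epb41l2* window 2, starting 64 and 13 bases before it. The *Cntn1* window held 0. Of the windows not printed, the other *Nfasc* window held 0 matches and the other *Cntn1* windows 2 and 1. Each window of the lower *Nrcam* and *Epb41l1* held 0, as did that of *Cntn2*. Those of *Epb41l3* held 2, 0 and 1, and those of *Epb41*, which leaned higher, 0, 0 and 1. A link between the motif and the direction of a member was not tested. Of all 32851 RefSeq windows of this length, 27.7% held at least 1 match, so that the motif is common. The second SOX core searched, ACAAAG, was in none of the 3 printed windows, in 1 window of *Epb41* and in 16.5% of all windows. Also searched were the E-box CANNTG, where N is any base, and the TATA box TATAAA. The E-box was in the printed *Nfasc* and *Epb41l2* windows, not in that of *Cntn1*, and in 66.2% of all windows. The TATA box was in none of the printed windows and in 12.4% of all windows. The GC content was 52.0% for *Nfasc*, 46.4% for *Epb41l2* and 53.6% for *Cntn1*, against a median of 52.4% over all windows. Which of the annotated starts was used in these cells cannot be read from counts per gene.

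*Nfasc* and *Epb41l2* were the members with the largest differences, 3.97-fold and 3.44-fold lower in cko than in ctrl NSCs, and *Cntn1* was 1.78-fold higher. *Epb41l1*, *Nrcam* and *Epb41l3* were lower by less, and *Epb41* leaned higher. Of the 10 genes, all of which passed the filter on low counts, 2 had a higher and 8 a lower mean log2 level in cko NSCs. Their median log2 fold change was -0.40, against 0.00 over all 16710 tested genes (8312 positive, 8398 negative). In edgeR's quasi-likelihood test with an adjusted p below 0.05 as the limit, 1 member was called higher and 5 lower, where 7.86% of all tested genes were called higher and 8.57% lower. With the limits the study used, a log2 change of 0.9 together with an unadjusted p below 0.01, here in edgeR, *Nfasc* and *Epb41l2* were called lower, as were 4.17% of all tested genes. In 6 members each cko library was below both ctrl libraries, as in 24.3% of tested genes, and in 2 each was above, as in 25.4%. The members were chosen on this contrast, and nothing is read from these counts. The RNA came from whole cultures, in which fewer cells of a type and less RNA per cell cannot be told apart.

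**Figure D1:**
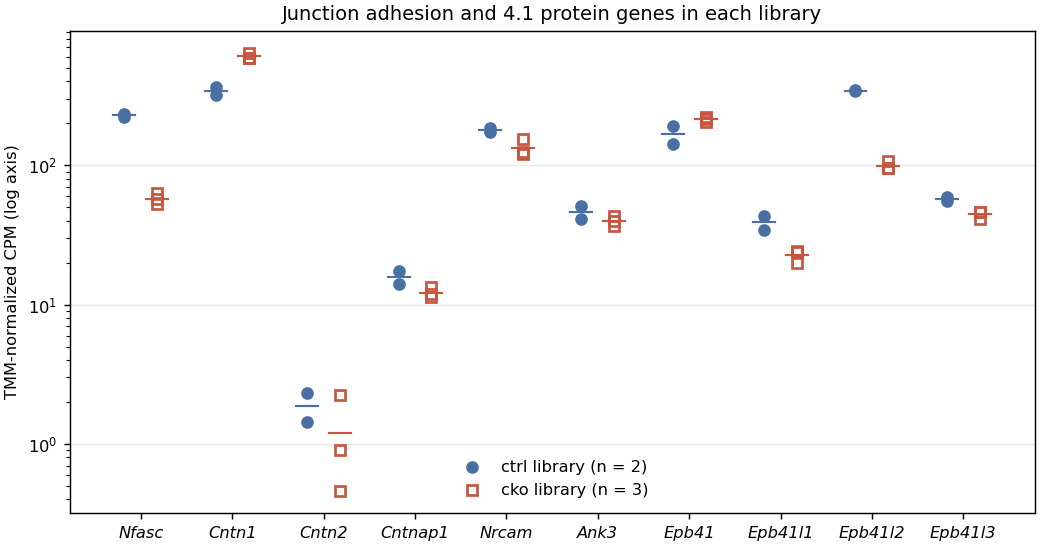
TMM-normalized CPM on a log axis for each of the 10 genes, with 1 filled circle per ctrl library (n = 2), 1 open square per cko library (n = 3) and a line at each mean. *Nfasc* and *Epb41l2* stand apart downward and *Cntn1* upward in cko NSCs, while the genotypes overlap in *Cntn2* and *Ank3*.

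Among the L1-type adhesion genes, *Nfasc* encodes neurofascin, whose neuronal form clusters sodium channels at nodes and initial segments and whose glial form builds the paranode. *Nfasc* (ENSMUSG00000026442, GRCm38 chromosome 1, 132564690 to 132741797, minus strand) was at 235 and 223 CPM in ctrl libraries 1 and 3, and at 62.7, 52.7 and 57.6 CPM in cko libraries 1, 2 and 3. All 3 cko libraries were far below both ctrl libraries, with a gap of 160.0 CPM between the nearest libraries of the 2 genotypes. The means were 229 ± 8.45 (SD, n = 2) and 57.7 ± 5.00 (SD, n = 3) CPM, and the log2 fold change was -1.99 (standard error 0.0894). The annotation lists 10 transcripts, and a count per gene does not separate the neuronal from the glial form.

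*Nrcam*, on chromosome 12 from 44328885 to 44601964, encodes the second nodal adhesion molecule of this type. Its levels were 187 and 173 CPM in ctrl and 153, 120 and 124 CPM in cko libraries. The genotypes did not overlap, but cko library 1 was nearer to ctrl library 3 than to the other cko libraries. The log2 fold change was -0.44 (standard error 0.115), and the member was no longer called without ctrl library 1, cko library 2 or cko library 3, where the log2 fold change lay between -0.41 and -0.38.

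The L1 type has further members, *L1cam* and *Chl1*, which were not among the 10 genes. *Chl1*, an adhesion molecule of migrating neurons and glia, was at 59.9 and 85.0 CPM in ctrl and 125, 112 and 111 CPM in cko libraries, and it rose by 0.68 on the log2 scale (adjusted p = 0.0226 in edgeR). Without cko library 1, 2 or 3 it was no longer past the threshold (adjusted p from 0.0807 to 0.0880 in edgeR). Per kilobase of merged exons, *Nfasc* made up 45.0% ± 2.19 (SD, n = 2) of the summed level of these 4 genes in ctrl and 17.3% ± 0.635 (SD, n = 3) in cko NSCs. The share of *Chl1* was 16.4% ± 3.82 (SD, n = 2) against 40.1% ± 1.27 (SD, n = 3), and that of *Nrcam* 37.4% against 42.0%. The leading gene of the type was *Nfasc* in each ctrl library. In cko libraries it was behind *Nrcam* and *Chl1* on this scale. With the longest transcript as the length, *Nrcam* led in both genotypes, with 45.95% and 49.5%.

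Contactins are held at the membrane by a lipid anchor and partner with CASPR proteins in the axon. *Cntn1* (ENSMUSG00000055022, chromosome 15, 92051165 to 92341967, plus strand) was at 362 and 319 CPM in ctrl and at 637, 592 and 587 CPM in cko libraries. Each cko library was above both ctrl libraries, and the cko libraries lay closer to each other than to either ctrl library. The log2 fold change was 0.83 (standard error 0.0892). It was the only member called higher in the comparison of 5 libraries, and it was called under each of the 14 alternatives that were run, with log2 fold changes from 0.75 to 0.91.

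*Cntn2*, also known as TAG-1, pairs with CASPR2 at the juxtaparanode. Its 53 and 27 counts in ctrl libraries and 40, 21 and 10 counts in cko libraries gave 2.32 and 1.44 against 2.24, 0.9002 and 0.460 CPM. The genotypes overlapped, and cko library 1 lay between the ctrl libraries. The log2 fold change of -0.69 had a 95% confidence interval from -2.08 to 0.70. The cko libraries varied widely, with a coefficient of variation of 77.25%, and leaving out 1 library gave log2 fold changes from -1.47 without cko library 1 to -0.30 without cko library 3. *Cntn2* lies next to *Nfasc* on the same strand of chromosome 1, from 132509427 to 132543256. *Cntn1* supplied 99.4% of the summed level of the pair per kilobase in ctrl and 99.8% in cko NSCs.

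*Cntnap1* encodes CASPR, the paranodal partner of contactin 1. It was at 14.1 and 17.3 CPM in ctrl and 11.3, 13.3 and 11.99 CPM in cko libraries, with a log2 fold change of -0.36 (95% confidence interval -0.71 to -0.01). The genotypes missed each other by 0.730 CPM, less than the spread within either. It was not called in the comparison of 5 libraries, but without ctrl library 1 the log2 fold change was -0.51 and called, and without ctrl library 3 it was -0.20 and not called. On the opposite strand the gene overlaps *Ccr10* and *Plekhh3*, which had 754 to 1041 counts in a library against 202 to 324 for *Cntnap1*. Whether counting used strand is not stated, so reads of *Cntnap1* are uncertain. Of the axonal pair of the paranode, *Cntn1* was called higher and *Cntnap1* was not called, and the difference between them was not tested.

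*Ank3* encodes ankyrin G, the scaffold that anchors neurofascin, NrCAM and sodium channels at nodes and initial segments. Its levels were 41.45 and 50.8 CPM in ctrl and 43.3, 39.5 and 36.9 CPM in cko libraries, with cko library 1 above ctrl library 1. The log2 fold change was -0.21 with a 95% confidence interval from -0.48 to 0.06, which does not reach the value of *Nfasc*. Without ctrl library 1 it was -0.36 and without ctrl library 3 -0.05, and it was called in neither case. The gene has 47 annotated transcripts, and the giant neuronal forms are not separated from the others. The closely related *Ank2*, which encodes ankyrin B and was no member, was at 1077 and 1118 CPM in ctrl and 858, 683.5 and 684 CPM in cko libraries. It fell by 0.565 on the log2 scale (adjusted p = 0.0184 in edgeR, and 0.101 without cko library 2 and 0.0968 without cko library 3).

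**Figure D2:**
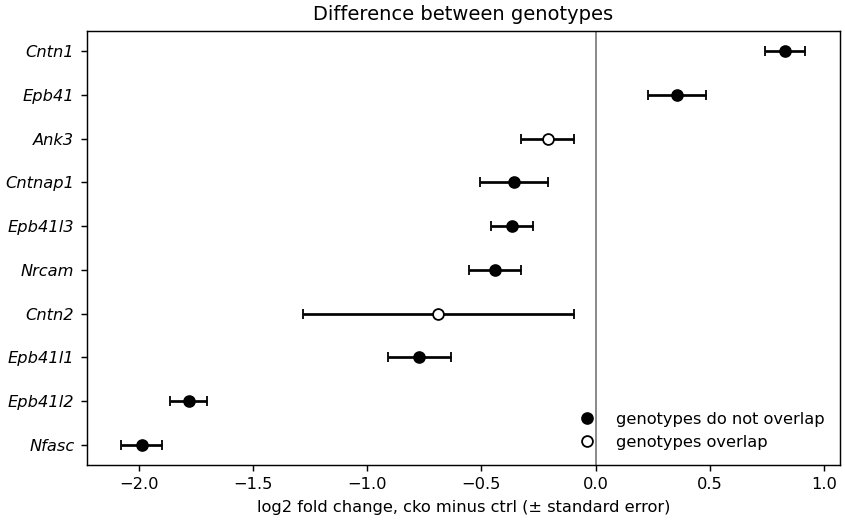
Log2 fold change of cko minus ctrl for each of the 10 genes, with the standard error as bars. Filled points are genes in which the 3 cko and 2 ctrl libraries do not overlap, and open points those in which they do. *Nfasc* (-1.99) and *Epb41l2* (-1.78) lie apart from the other lower genes, which reach -0.77.

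The 10 genes include 4 paralogs of the EPB41 family, and relatives such as *Epb41l4a* were listed with the other FERM proteins. *Epb41* was first known from red blood cells, *Epb41l2* encodes the widely expressed form, and *Epb41l1* and *Epb41l3* encode forms abundant in neurons, of which the latter binds CASPR proteins at the paranode and juxtaparanode. *Epb41l2* (ENSMUSG00000019978, chromosome 10, 25359798 to 25523519, plus strand) was at 339 and 344 CPM in ctrl and 107, 94.8 and 96.1 CPM in cko libraries. The ctrl libraries were almost equal, and all cko libraries were below them by at least 231.6 CPM. The log2 fold change was -1.78 (standard error 0.0808), and over the 14 alternatives it stayed between -1.85 and -1.75.

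*Epb41l1*, on chromosome 2 from 156420909 to 156543214, had 34.2 and 43.5 CPM in ctrl and 19.9, 24.2 and 23.9 CPM in cko libraries (log2 fold change -0.77, standard error 0.139). Without cko library 2 or 3 it was no longer called (log2 fold change -0.83 and -0.82). *Epb41l3*, on chromosome 17 from 69075683 to 69289989, had 59.4 and 55.2 against 40.9, 46.4 and 46.05 CPM (log2 fold change -0.37, standard error 0.0903). Its call was lost without ctrl library 1 or any 1 of the cko libraries, with log2 fold changes from -0.41 to -0.32. In both genes each cko library was below both ctrl libraries, with gaps of 9.98 CPM for *Epb41l1* and 8.79 CPM for *Epb41l3* between the nearest libraries.

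*Epb41*, on chromosome 4 from 131923413 to 132075321, went the other way. It was at 192 and 142 CPM in ctrl and 221, 205 and 215 CPM in cko libraries. The cko libraries agreed closely, whereas the ctrl libraries differed 1.36-fold. The log2 fold change of 0.36 (95% confidence interval 0.06 to 0.66) was not called, and without ctrl library 1, the higher one, it was 0.58 and called. Without ctrl library 3 it was 0.16 and not called, so that its size depended on which ctrl library was used. Among the paralogs followed here, *Epb41* thus leaned higher and the other 3 were lower.

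Their order by level changed with it. Per kilobase of merged exons, *Epb41l2* made up 60.8% ± 2.70 (SD, n = 2) of the summed level of these paralogs in ctrl and 30.5% ± 1.54 (SD, n = 3) in cko NSCs. *Epb41* made up 22.0% ± 3.96 (SD, n = 2) and 48.75% ± 0.767 (SD, n = 3). *Epb41l3* held 10.1% against 13.6%, and *Epb41l1* 7.12% against 7.17%. The most abundant paralog was *Epb41l2* in each ctrl library and *Epb41* in each cko library. With the longest transcript as the length, the shares of *Epb41l2* were 66.0% and 36.1% and those of *Epb41* 17.0% and 41.0%, in the same order. The summed level was 48.6 and 46.3 CPM per kilobase in ctrl and 28.1, 26.9 and 27.5 in cko libraries.

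**Figure D3:**
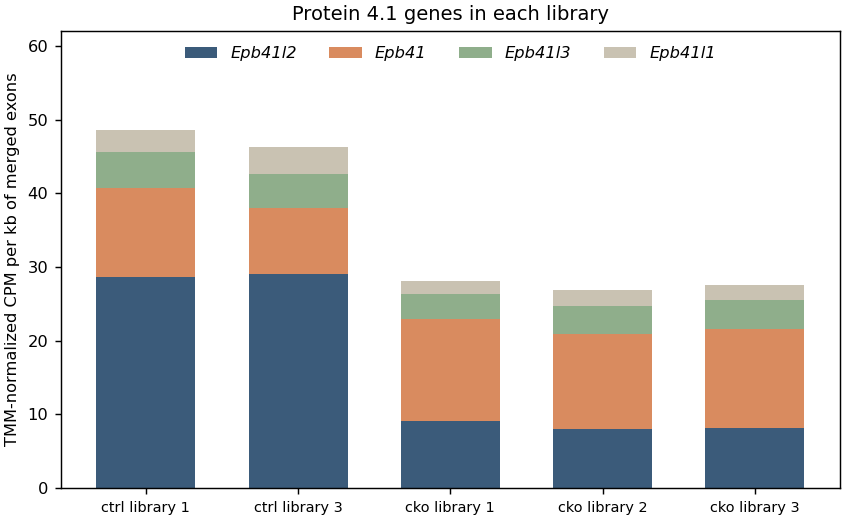
Stacked levels of the 4 EPB41 family genes followed here in each library, as TMM-normalized CPM per kilobase of merged exons. The bars of the 3 cko libraries (26.9 to 28.1) are shorter than those of the 2 ctrl libraries (46.3 and 48.6), mainly in the *Epb41l2* segment.

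Across the 10 genes, levels per kilobase of merged exons ran in ctrl NSCs from 36.1 CPM per kilobase for *Cntn1* and 28.8 for *Epb41l2*, through 16.2 for *Nfasc*, 13.4 for *Nrcam* and 10.5 for *Epb41*, to 4.81 for *Epb41l3*, 3.37 for *Epb41l1*, 2.67 for *Cntnap1*, 1.32 for *Ank3* and 0.202 for *Cntn2*. No neighbours in this order overlapped across the 2 ctrl libraries, though *Cntnap1* (2.39 and 2.94) and *Epb41l1* (2.97 and 3.77) nearly met. In cko NSCs the order was led by *Cntn1* (64.2), *Epb41* (13.4), *Nrcam* (9.91) and *Epb41l2* (8.395), followed by *Nfasc* (4.08) and *Epb41l3* (3.73). Here *Nrcam* overlapped with *Epb41l2*, and *Nfasc* with *Epb41l3*, across the 3 libraries. With the longest transcript as the length, *Epb41l2* was ahead of *Cntn1* in ctrl NSCs, at 77.9 and 60.0 CPM per kilobase.

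Markers of the oligodendrocyte lineage moved in the same libraries. Of 10 oligodendrocyte genes, 7 could be tested, and 6 of them fell past the same limit while none rose (median log2 fold change -2.89). All 6 stayed past it when any 1 library was left out. *Mbp*, a main myelin protein gene, fell by 4.16 on the log2 scale. The summed level of the list was 1053 and 1151 CPM in ctrl and 331 to 375 CPM in cko libraries. The other genes of the list did not pass the filter on low counts. *Mobp* had 3 and 5 counts in ctrl and 0 in each cko library. *Ermn* went the other way, with 1 and 1 counts in ctrl and 4, 6 and 7 in cko libraries. *Opalin* had 15 and 7 counts in ctrl and 6, 10 and 3 in cko libraries. The precursor list went in both directions. *Sox10*, a transcription factor of the whole lineage, fell from 162 and 190 CPM to 54.4, 41.2 and 45.3 CPM (log2 fold change -1.90), and *Gpr17*, a gene of committed precursors, fell by 1.73 on the log2 scale. *Olig1* and *Olig2* rose by 0.63 and 0.38, but neither was past the threshold without cko library 2 (adjusted p = 0.0812 and 0.199 in edgeR) or cko library 3 (0.0686 and 0.155), and *Olig2* was not without ctrl library 1 (0.0649) or cko library 1 (0.0915). *Pdgfra* and *Cspg4*, at log2 fold changes of 0.45 and 0.24, did not pass (adjusted p = 0.0942 and 0.594 in edgeR). The summed precursor list was 2904 and 3467 CPM in ctrl and 3437 to 3622 CPM in cko libraries. The part of these cells in the levels of *Nfasc* and *Epb41l2* was not tested.

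The other cell types moved less evenly. Of 6 astrocyte genes, *S100b*, *Slc1a2* and *Gja1* were called lower and none higher (median log2 fold change -1.425). Without cko library 2 or 3, however, *S100b* alone passed. The summed list was at 2443 and 1339 CPM in ctrl and 608 to 1136 CPM in cko libraries. *Gfap* was at 1008 and 178 CPM in ctrl libraries 1 and 3, a wider ratio than in any of the 10 junction genes, and it did not pass the test (adjusted p = 0.126 in edgeR). Of 9 tested neuronal genes, *Elavl4* and *Syt1* were called higher and *Dcx* lower. The summed list overlapped between the genotypes (1219 and 1347 against 1339 to 1374 CPM). *Dcx*, a gene of immature neurons, was at 148 and 100.2 CPM in ctrl against 54.8, 38.5 and 37.4 CPM in cko libraries. Of 8 NSC genes, *Nes* and *Hes5* were called higher and *Hes1* and *Slc1a3* lower, the last not without cko library 2 (adjusted p = 0.0536 in edgeR).

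Beyond the 10 genes, 74 partners in 6 overlapping lists were read from the same fit, and 68 of them could be tested. In edgeR, 8 of these rose and 10 fell past the adjusted limit in cko NSCs, and their median log2 fold change was -0.01. Over all tested genes, 7.86% were called higher and 8.57% lower. The counts per list below are a description beside these shares. Without cko library 2 or 3 the counts of called partners fell to 1 and 2, with *Add2* higher and *Mag* and *Tnr* lower in either case. The genes named below are the 2 with the largest fold change in each direction among those called in a list, save where stated. Apart from *Add2*, *Mag* and *Tnr*, each call named below was thus lost without cko library 2, and likewise without cko library 3. The direction of each stayed the same in these fits. Calls over all genes fell at the same time, from 1314 higher and 1432 lower to 317 and 416 without cko library 2. Without cko library 3 they fell to 336 and 457. The call of *Epb41l4a* was also lost in edgeR without cko library 1 (adjusted p = 0.0613), and that of *Kcnq3* without ctrl library 1 (adjusted p = 0.0721).

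In the list of node and axon initial segment genes, 2 of 13 tested genes were called higher and 2 lower. *Sptbn4* encodes beta-IV spectrin, which joins ankyrin G to the actin skeleton. It fell from 6.73 and 11.0 to 3.47, 2.79 and 2.895 CPM, a log2 difference of -1.54 (adjusted p = 0.00916 in edgeR). *Kcnq3*, a potassium channel subunit bound to ankyrin G, rose by 0.60 and *Chl1* by 0.68 on the log2 scale. The sodium channel gene *Scn8a*, named after its values were seen, was at 116 and 104 CPM in ctrl and 105 to 121 CPM in cko libraries.

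In the list of juxtaparanode and internode genes, 3 of 15 were called lower and none higher. *Mag*, a myelin adhesion molecule that faces the axon, was at 3.67 and 2.56 CPM in ctrl libraries, and at 0, 0.0857 and 0 CPM (0, 2 and 0 counts) in cko libraries 1, 2 and 3. *Kcna2*, a juxtaparanodal potassium channel gene, was at 466 and 627 CPM in ctrl and 349, 342 and 334 CPM in cko libraries (adjusted p = 0.0121 in edgeR, and 0.0704 without cko library 2 and 0.0713 without cko library 3). The juxtaparanodal *Cntnap2*, partner of *Cntn2* and named after its values were seen, was likewise low, at 0.153 CPM per kilobase in ctrl and 0.1075 in cko NSCs against 0.202 and 0.129 for *Cntn2*.

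Among the other contactins and CASPRs, *Cntn4* and *Cntn6* were called higher. *Cntn4* was at 1.31 and 1.07 CPM in ctrl and 2.35, 2.83 and 3.998 CPM in cko libraries, and *Cntn6* at 1.18 and 2.45 against 4.59, 4.16 and 5.10 CPM, each a rise of 1.36 on the log2 scale (adjusted p = 0.0331 and 0.0332 in edgeR). None of the 7 tested genes of this list was called lower, though 3 had a negative log2 fold change. A further 3 were removed by the filter on low counts. Leaving out cko library 2 or 3 ended both calls (adjusted p from 0.101 to 0.130 in edgeR), as did leaving out ctrl library 3 for *Cntn4* (0.0612) and ctrl library 1 (0.0502) or cko library 1 (0.0879) for *Cntn6*.

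Of 14 genes of other FERM proteins, 4 were called lower and none higher. *Ezr*, which encodes the membrane linker ezrin, was at 91.7 and 49.3 CPM in ctrl and 38.1, 25.6 and 27.3 CPM in cko libraries (adjusted p = 0.0226 in edgeR), and *Epb41l4a* fell by 1.07 on the log2 scale. The ezrin relatives *Rdx* and *Msn*, named after their values were seen, had log2 fold changes of 0.21 and 0.27 that did not pass the threshold.

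Of 15 genes of the spectrin and actin skeleton, 2 were called higher and 2 lower, and the median log2 fold change was 0.03. The main spectrin genes *Sptan1* and *Sptbn1*, named after their values were seen, had log2 fold changes of 0.03 and -0.11. *Tmod1*, which caps actin filaments, rose from 2.05 and 1.87 to 4.25, 7.85 and 6.85 CPM, and *Add2*, which joins spectrin to actin, from 67.2 and 49.6 to 97.4, 102 and 104 CPM (adjusted p = 0.00842 in edgeR). *Sptbn4* and *Ank2* were the genes called lower.

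Of 7 tested genes of the nodal matrix, 2 were called higher and 1 lower. *Tnr* encodes tenascin R, which oligodendrocyte lineage cells deposit at nodes and which binds contactin 1. It fell from 900.5 and 856 CPM to 380, 260.0 and 292 CPM (adjusted p = 0.00195 in edgeR). *Tnc* and *Vcan*, which encode tenascin C and versican, rose by 0.77 and 0.61 on the log2 scale. Without cko library 2 or 3 neither was past the threshold (adjusted p from 0.112 to 0.123 in edgeR), and *Vcan* was not without cko library 1 (0.0871).

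**Figure D4:**
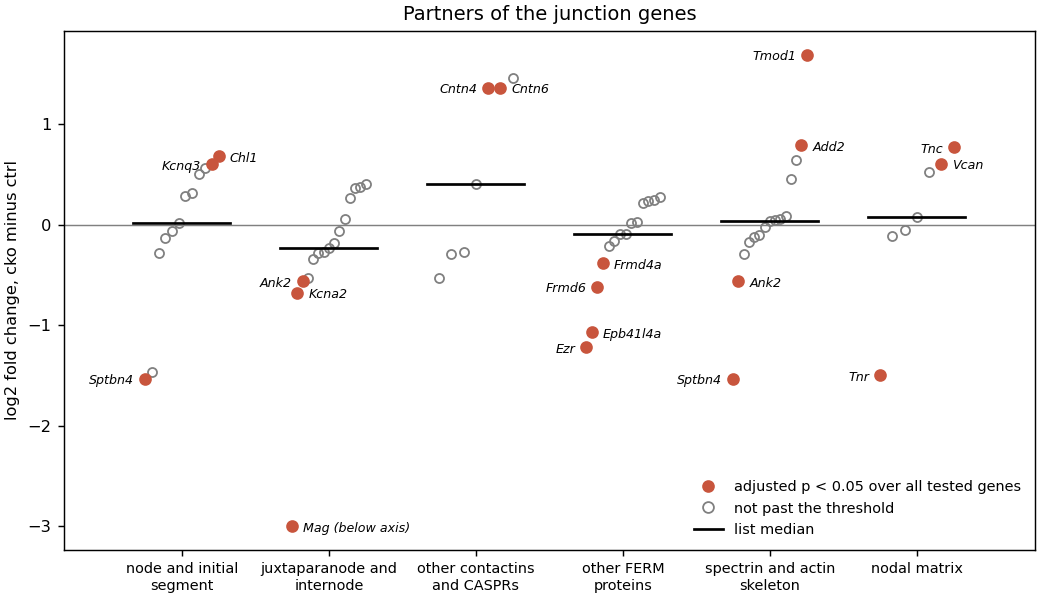
Log2 fold change of cko minus ctrl for the tested partners of the junction genes that are reported here, in 6 lists, with 1 point per gene, a line at the median of each whole list and the genes past the adjusted limit filled and named. *Mag*, at or near 0 counts in cko libraries, is drawn at the lower edge. The medians lie between -0.23 and 0.40.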

How the data were processed

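RNA-seq was run on cultured NSCs from E14.5 embryos. The authors used NGSQC to filter reads and HISAT2 with the mm10 genome for alignment. The deposited values are raw counts for each Ensembl gene. The submitters' processing notes name GRCm39 instead. Counter, annotation and strand setting are not given in the sources used here. Gene names, positions and exon lengths came from GENCODE M21 on GRCm38 and matched 31836 of 32493 IDs, so coordinates are those of that annotation.

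Groups followed the genotype labels. The members and lists were chosen with earlier results of these data known. Of the count columns, 5 entered edgeR 4.0.16 (R 4.3.3), with its filter on low counts (16710 genes kept), TMM and the quasi-likelihood test, with Benjamini-Hochberg adjustment over all tested genes. Standard errors are those implied by the quasi-likelihood F statistic. Levels are CPM, also divided by merged exon length. The fits were tested on simulated data. The floor of 3 counts was 0.129 to 0.168 CPM, for counting error only. Genes named are the 10 members, the 2 called partners of a list with the largest change in each direction, the first 2 markers of a list and those at 0, and others marked as named after their values were seen or used beside a result. Some markers outside this rule were likewise named after their values were seen. Alternatives included DESeq2 1.42.0, other scalings and filters, a replicate block, leaving out each library and all 6 columns. A few listed genes count in the totals and medians but are not reported here.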

Additional observations from a re-analysis of the deposited data

How the results depend on the processing

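In the 14 alternatives no member changed direction, and *Nfasc*, *Epb41l2* and *Cntn1* were called in each. With the replicate block, 5 libraries gave 1 member higher and 3 lower, since *Nrcam* and *Epb41l3* lost their calls. Of all genes, 918 were higher and 1065 lower. In that fit cko library 2 had no ctrl library of the same number, so it added nothing to the genotype difference. The numbers were not taken to pair libraries, because no source ties a number to a litter. Deviations from the genotype means of same-numbered libraries had r = 0.179 across genes for number 1 and 0.0546 for number 3. With 2 ctrl libraries, the deviation of 1 is the negative of the other. These values are thus not independent and cannot decide on pairing. Leaving out 1 library gave 1 to 2 members higher and 2 to 5 lower, 1 to 11 partners higher and 2 to 14 lower, and 317 to 1812 of all genes higher and 416 to 2062 lower. The lowest counts of all genes came without cko library 2, with 336 and 457 of all genes without cko library 3 and 853 and 907 without cko library 1. With no filter, 2237 of all genes were lower, 2 members and 13 partners higher. With all 6 columns, the averaged one included, 2 members and 17 partners were higher in each of 3 fits, and all genes called were 2865 and 2794 in edgeR, 2605 and 2539 in DESeq2, and 2675 and 2673 in edgeR with the replicate block. The member added to *Cntn1* in these fits was *Epb41*, and *Cntnap1* was also called lower in edgeR with 6 columns. The averaged column adds no information of its own. *Cntn2* had 10 to 53 counts a library and varied widely between libraries, and the part of depth in its wide interval was not tested. Ranks by level depend on the length used.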
